A study of Homo sapiens with 3 samples.

Results

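Olfactory receptor gene clusters were examined as a silent control for the binding of PRCC-TFE3 in kidney cells. The regions were 3 windows set by position alone: chr11:4380000-6230000 (1.85 Mb, here window 11p), chr11:55000000-56800000 (1.8 Mb, window 11q) and chr1:247600000-248850000 (1.25 Mb, window 1q), all in hg19. Every deposited ChIP peak with its midpoint in a window was a member. These were 87 of the 338288 entries in the 4 ChIP peak lists, and they merged into 33 separate regions, of which 23 lay in 11p, 4 in 11q and 6 in 1q. The windows made up 1.28% of the length compared on chromosomes 1 and 11.

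The cells were HK-2, an established human cell line derived from the proximal tubule of the kidney. They carried HA-PRCC-TFE3 under doxycycline control, a fusion of PRCC with the transcription factor TFE3 that is found in renal cell carcinomas with TFE3 rearrangement. The series held 2 HA-PRCC-TFE3 ChIP libraries (replicate 1 and replicate 2) and 1 input DNA library, all from cells given 0.2 µg/mL doxycycline for 24 h, with cross-linked chromatin cut by micrococcal nuclease and an antibody to the HA tag used for precipitation. The study calls the replicates biological, although the labels do not say whether they came from separate cultures, and cells without doxycycline were not analysed here.

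Olfactory receptors are G protein-coupled receptors that detect odorants and form the largest gene family of the human genome. A sensory neuron of the nose expresses a single one of them, and elsewhere the clusters are kept in compact heterochromatin with little transcription. TFE3 belongs to the MiT/TFE family of basic helix-loop-helix leucine zipper factors, which bind the E-box CACGTG and are best known for controlling genes of the lysosome and of autophagy. Expression in HK-2 cells was not measured in these files, so the silence of the receptors in this line was taken from general knowledge and was not checked.

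In the RefSeq gene order (GRCh38.p14), the run of genes between SSU72L1 and FHIP1B on chromosome 11, at window 11p, held 55 olfactory receptor genes and 16 other protein-coding genes. These others included TRIM5, TRIM22 and TRIM34, ubiquitin ligases of antiviral defence, and the metalloproteinase gene MMP26. The globin genes HBB, HBD, HBG1, HBG2 and HBE1 were also among them. The run between TRIM48 and LRRC55, at window 11q, held 46 receptor genes and 1 other gene, TRIM51. The run between NLRP3 and LYPD8, at window 1q, held 43 receptor genes and 2 others, GCSAML and TRIM58. The 3 runs together held 144 of the 232 olfactory receptor genes on chromosomes 1 and 11. The flanking genes were named by hand from knowledge of these clusters, and peaks were in hg19, so which peak lay in which gene was not analysed here.

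Promoters of the receptor genes were read from RefSeq as the bases from 250 before to 50 after the gene start, and 118 of the 144 genes had an entry. The E-box CACGTG, searched on both strands, was present in 1 of them, or 0.847% (95% Wilson interval 0.150% to 4.64%), compared with 8.88% of the 15843 promoters of protein-coding genes and 7.43% of all 27305 promoters. The flanked form TCACGTGA, which contains the shorter motif, was present in none of the 118, which allows up to 3.15%, compared with 1.43% of protein-coding and 1.04% of all promoters. In contrast, TGANTCA, which takes in the binding element of AP-1 factors, was present in 16 receptor promoters (13.6%, 8.52% to 20.9%), compared with 5.75% of protein-coding and 7.76% of all promoters. By run, these were 2 of 39 promoters in 11p, 8 of 43 in 11q and 6 of 36 in 1q. The receptor promoters had a median GC content of 36.7%, compared with 62.7% for protein-coding genes. The matches describe letters in these promoters of the reference sequence and not bound sites. The 4 stretches of 120 bases each, all lying before the gene start and written 5′ to 3′ on the strand of the gene, show the single E-box and, for each run, the first receptor gene with TGANTCA before its start. Capitals mark the motif. The stretches lie in GRCh38.p14 at chr1:248597701-248597820 (minus strand) for OR2T10, chr11:4849259-4849378 (minus) for OR51S1, chr11:55811124-55811243 (plus) for OR5L1 and chr1:247679744-247679863 (minus) for OR13G1.
OR2T10: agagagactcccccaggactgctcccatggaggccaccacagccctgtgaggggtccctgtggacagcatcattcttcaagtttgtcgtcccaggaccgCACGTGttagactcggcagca
OR51S1: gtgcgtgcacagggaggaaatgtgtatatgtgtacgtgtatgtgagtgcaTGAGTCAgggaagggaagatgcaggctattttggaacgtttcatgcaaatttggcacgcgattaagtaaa
OR5L1: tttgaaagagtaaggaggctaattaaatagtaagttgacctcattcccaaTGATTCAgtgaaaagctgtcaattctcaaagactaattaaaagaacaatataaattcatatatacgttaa
OR13G1: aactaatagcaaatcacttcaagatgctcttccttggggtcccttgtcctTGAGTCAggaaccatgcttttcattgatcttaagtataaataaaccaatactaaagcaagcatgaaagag

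The E-box of OR2T10 began 21 bases before the gene start. The TGANTCA matches began 120 bases before the start of OR51S1, 193 before that of OR5L1 and 74 before that of OR13G1. All 4 genes encode odorant receptors.

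The libraries differed in depth and in the number of peaks called. The library totals estimated from the lists were 12235754 tags in replicate 1, 7418533 in replicate 2 and 21696015 in input DNA. The narrowPeak lists held 109205 and 81300 peaks, and the BED lists, with peaks of fixed width (208 bp and 212 bp), held 84248 and 63535. Intervals given here are 95% intervals that cover counting error only, and peaks in a window are not replicates.

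The first question was how many peaks the receptor windows held compared with the remainder of the same chromosomes. Peaks were present in the windows but sparse. Replicate 1 had 30 narrowPeak peaks in the 4.9 Mb, or 6.12 per Mb, where the density outside the windows would give 168 (34.3 per Mb). This was 5.60-fold fewer, a ratio of 0.179 (exact Poisson interval 0.120 to 0.255). Replicate 2 had 20 peaks, or 4.08 per Mb, where 129 would be given (26.2 per Mb). The ratio was 0.156 (0.0951 to 0.240), or 6.43-fold fewer. The mean ratio of both replicates was 0.167 ± 0.0162 (SD, n = 2), so the deficit was many times larger than the difference between the replicates. The BED lists, with 22 and 15 members, gave 0.161 ± 0.0121 (SD, n = 2).

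The 3 windows were not alike. Window 11p was the least empty. It held 21 peaks in replicate 1, or 11.4 per Mb (7.03 to 17.4), and 16 in replicate 2, or 8.65 per Mb (4.94 to 14.0). The rest of chromosome 11 had 29.9 and 23.1 per Mb. The peaks of 11p were thus 2.64-fold and 2.67-fold fewer, and the mean ratio was 0.377 ± 0.00347 (SD, n = 2).

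Window 11q was nearly empty. It held 3 peaks in replicate 1, or 1.67 per Mb (0.344 to 4.87), and 1 peak in replicate 2, or 0.556 per Mb (0.0141 to 3.10). The ratios to the rest of chromosome 11 were 0.0557 (0.0115 to 0.163) and 0.0240 (0.000609 to 0.134). The BED list of replicate 2 had no peak in 11q, and with a limit of 3 counts, or 1.67 per Mb, this was at least 10.5-fold fewer than in the rest of the chromosome. Both windows lie on chromosome 11, so their densities can be compared directly. In replicate 1 the density of 11p was 6.81 times that of 11q (exact interval 2.03 to 35.7), and in replicate 2 it was 15.6 times (2.42 to 653). The BED list of replicate 1 gave 4.86 times (1.38 to 26.2).

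Window 1q lay between them. It held 6 peaks in replicate 1, or 4.80 per Mb (1.76 to 10.4), and 3 in replicate 2, or 2.40 per Mb (0.495 to 7.01), whereas the rest of chromosome 1 had 47.0 and 35.3 per Mb. The ratios were 0.102 (0.0375 to 0.222) and 0.0679 (0.0140 to 0.198), that is 9.79-fold and 14.7-fold fewer. In every window and in both replicates the interval of the narrowPeak ratio ended below 1.

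**Figure D1:**
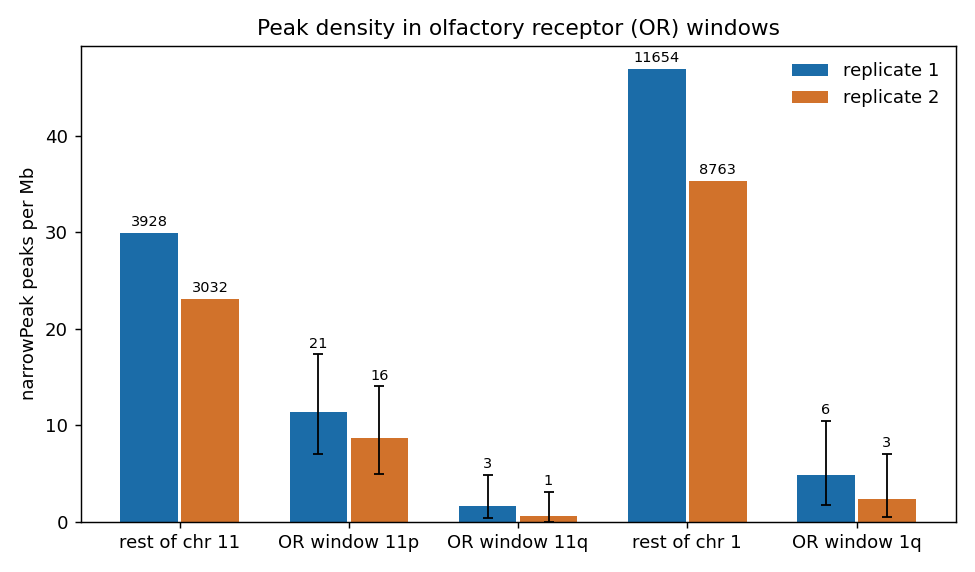
NarrowPeak peaks per Mb (vertical axis) in the rest of chromosomes 11 and 1 and in the 3 olfactory receptor windows, for replicate 1 (blue) and replicate 2 (orange), with the number of peaks above each bar and 95% exact Poisson intervals on the windows. All 6 window bars are below those of their chromosome, and those of 11q (3 and 1 peaks) are the lowest.

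The windows were next set beside their own surroundings, since peak density changes along a chromosome. Over the 1 Mb before 11p there were 48 peaks in replicate 1 and 28 in replicate 2, and over the 1 Mb after it 35 and 29. The 1 Mb after 11q held 49 and 45 peaks. The 1 Mb before 1q held 50 and 43 peaks, and the stretch of 0.379 Mb from 1q to the last peak of the chromosome held 44.9 and 39.6 per Mb. These 5 flanks had between 28 and 50 peaks per Mb, all above the windows. The exception was the 1 Mb before 11q, which had no peak in any ChIP list. There the nearest peak outside the window was 3420 kb away in both replicates, with a fold enrichment of 1.44 in replicate 1 and 2.07 in replicate 2. This empty stretch reached into the window and covered its first 0.494 Mb, so that 1.31 Mb of 11q was left when empty stretches of at least 1 Mb were taken out. Whether the part before 11q holds assembled sequence was not checked, so its lack of peaks cannot be read as a lack of binding.

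The distance from the other borders to the nearest peak outside ranged from 10.7 kb to 266 kb. After 11p the nearest peak was 10.8 kb outside in replicate 1 and 10.7 kb outside in replicate 2, with fold enrichments of 13.9 and 10.3, while the last peak inside lay 519 kb and 285 kb before the border. Before 1q the nearest outside peak was 78.8 kb away in replicate 1 (fold 33.4) and 46.4 kb away in replicate 2 (fold 5.17). The first peaks inside 1q, 11.5 kb and 11.6 kb from the border, had folds of 6.16 and 5.37. After 11q the nearest outside peak was 40.3 kb away in both replicates. At the remaining borders the replicates differed, with distances of 23.1 kb and 172 kb before 11p and of 47.1 kb and 266 kb after 1q in replicate 1 and replicate 2.

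Low density was not found in the receptor windows alone. Both chromosomes were divided into tiles of 1 Mb that did not touch a window. Of the 129 tiles on chromosome 11, 35 (27.1%) in replicate 1 and 37 (28.7%) in replicate 2 were at or below the density of 11p. At or below 11q were 14 (10.9%) and 12 (9.30%), of which 11 and 12 had no peak. Of the 247 tiles on chromosome 1, 26 (10.5%) and 28 (11.3%) were at or below 1q, of which 20 in each replicate had no peak. Among tiles with a peak, the median was 27.5 and 22 peaks on chromosome 11 and 45 and 33 on chromosome 1. Of the tiles with a peak, 20.3% and 21.4% were at or below 11p, and 2.64% and 3.52% at or below 1q. For 11q these shares were 2.54% and 0%. A tile with a peak holds at least 1, and 11q had 0.556 peaks per Mb in replicate 2. The share of 0% was thus fixed in advance and says nothing about how rare such sparse tiles are. Whether tiles without a peak hold assembled sequence was not checked. On chromosome 11 some tiles without a peak in replicate 2 had 1 or 2 peaks in replicate 1, so not all of them lack usable sequence. Many other stretches were as sparse as 11p. Few tiles with a peak were as sparse as 1q, yet with all tiles counted the shares were 10.5% and 11.3% for 1q and 10.9% and 9.30% for 11q. How rare the sparsity of 1q and 11q is was thus not settled.

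**Figure D2:**
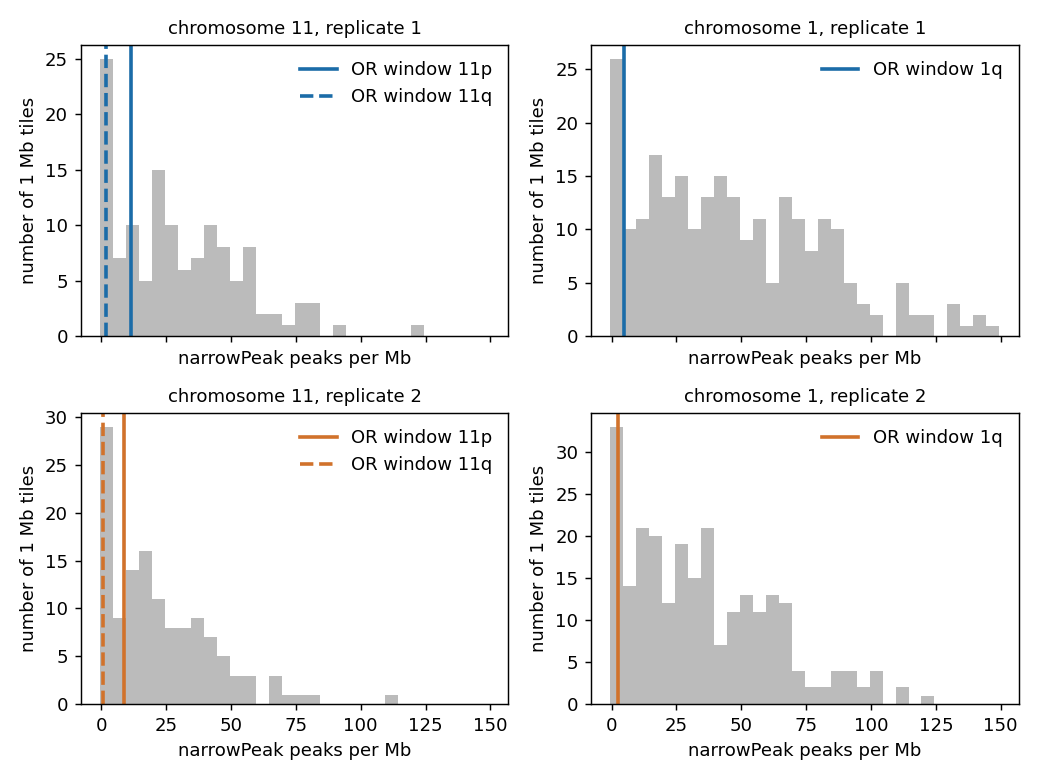
Number of 1 Mb tiles (vertical axis) by narrowPeak peaks per Mb (horizontal axis) on chromosome 11 (left) and chromosome 1 (right) for replicate 1 (top) and replicate 2 (bottom), with vertical lines at the density of each receptor window. Tiles without a peak (11 and 12 on chromosome 11, 20 on chromosome 1) are in the first bar. The line of 11p lies to the right of the first bar, and those of 11q and 1q lie within it or at its edge.

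Within the windows the peaks were unevenly spread. When 11p was divided into 37 tiles of 50 kb, 13 held a peak in replicate 1 and 11 in replicate 2. In 11q, 3 of 36 tiles held a peak in replicate 1 and 1 of 36 in replicate 2, and in 1q the numbers were 5 and 2 of 25. The most peaks in a 50 kb tile were 6 and 4 in 11p, 1 and 1 in 11q, and 2 and 2 in 1q.

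A single stretch held much of 11p. The 100 kb with the most peaks, chr11:5572096-5672096, was chosen on these values, so it is described without a test. It contained 10 of the 21 peaks of 11p in replicate 1 and 7 of the 16 in replicate 2, or 100 and 70 per Mb. Of these, 6 were recovered in the other replicate in both directions. The remainder of 11p had 6.29 and 5.14 peaks per Mb, above the 1.67 and 0.556 per Mb of 11q. The rest of chromosome 11 had 29.9 and 23.1 peaks per Mb, and the most peaks in 100 kb there were 36 and 26. In 100 kb counted from a peak, the median on chromosome 11 was 6 peaks in replicate 1 and 5 in replicate 2. The stretch thus had fewer peaks than the densest parts of the chromosome. That it had more than the average follows in part from how it was chosen.

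The longest stretches without a peak in any of the 4 ChIP lists were chr11:55494465-56392128 in 11q (898 kb), chr1:247906063-248406435 in 1q (500 kb) and chr11:5944654-6240608 in 11p (296 kb, of which 285 kb lay inside the window). Ranked by length on their chromosome, these were 8 and 63 of 4376 stretches for 11q and 11p, and 21 of 12907 for 1q. The median stretch was 8.61 kb on chromosome 11 and 6.0 kb on chromosome 1. Each was picked as the longest of its window, so a length above the median does not by itself set the windows apart. The longest stretches of other regions of this size were not computed.

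**Figure D3:**
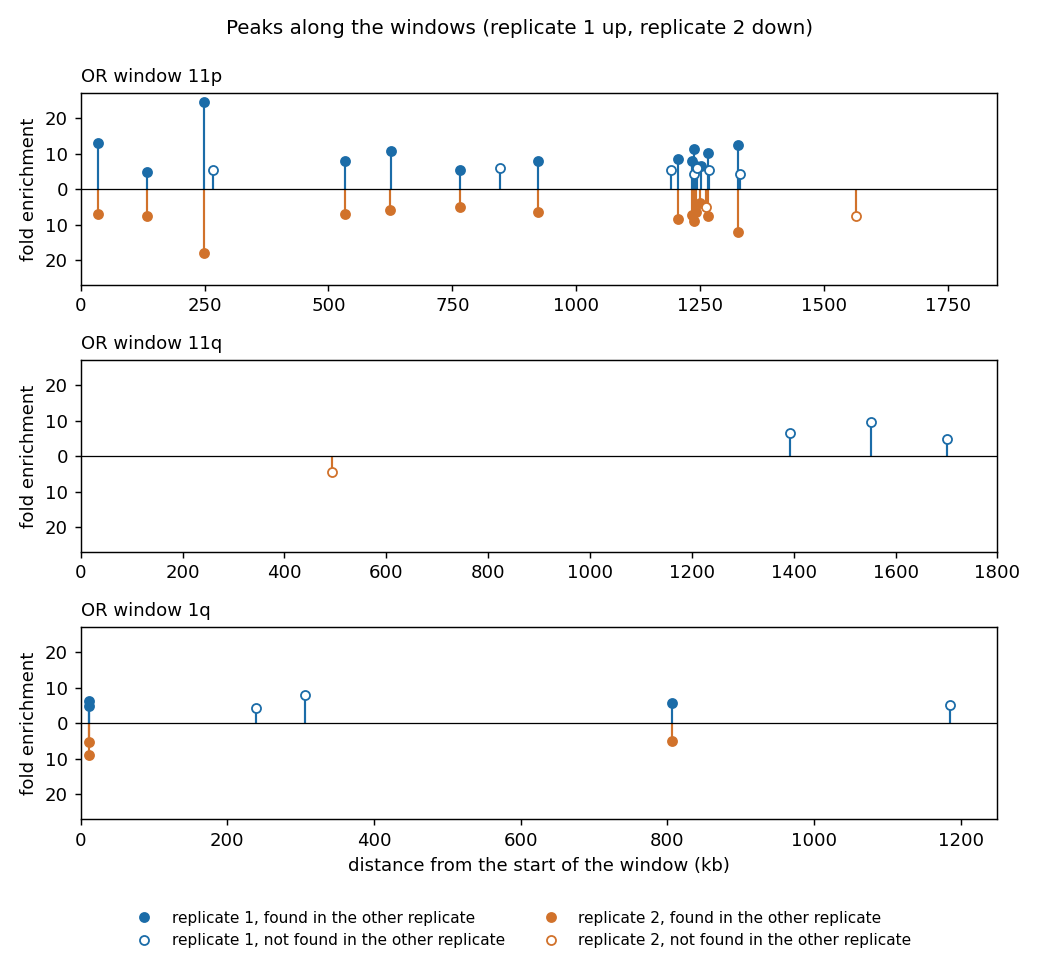
Fold enrichment of each narrowPeak peak (vertical axis, replicate 1 upward in blue, replicate 2 downward in orange) by distance from the start of the window in kb, for windows 11p, 11q and 1q. Filled points were found in the other replicate and open points were not. Window 11p has filled points along most of its length with a dense group in its later part, whereas all 4 points of 11q are open.

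The next question was whether the members were found in both replicates. In replicate 1, 17 of 30 narrowPeak members, or 56.7% (Wilson interval 39.2% to 72.6%), overlapped a peak of replicate 2 by at least 1 bp, and over all peaks of the list the share was 65.3%. In replicate 2, 17 of 20 members, or 85.0% (64.0% to 94.8%), overlapped a peak of replicate 1, and over the whole list the share was 88.5%. In the BED lists, 12 of 22 members of replicate 1 (54.5%; whole list 66.1%) and 12 of 15 of replicate 2 (80.0%; whole list 87.6%) were recovered. The shares depend on the depth of the list that is searched, so each direction stands alone.

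Over all 3 windows together, the recovery of the members could not be told apart from that of other peaks at these numbers. Against the rest of chromosomes 1 and 11 (66.1%), the difference for replicate 1 was -9.44 percentage points (Newcombe interval -26.9 to 6.53). For replicate 2 (rest 88.3%) it was -3.34 points (-24.4 to 6.44). Both intervals include 0, and they also allow differences of more than 20 points. When the rest was weighted to the fold enrichment of the members, its shares were 57.0% and 86.7%, and the differences became -0.284 and -1.71 points. The windows differed among themselves. In 11p, 14 of 21 and 14 of 16 peaks were recovered, in 1q 3 of 6 and 3 of 3, and in 11q none of 3 and none of 1. With 3 peaks and 1 peak, the upper limits of the interval for 11q were 56.1% and 79.3%, both below the rest. The differences for 11q were -66.1 points (Newcombe interval -66.8 to -9.95) in replicate 1 and -88.3 points (-88.9 to -9.00) in replicate 2. When the rest was weighted to the folds of the 11q peaks, its shares were 55.3% and 58.9%, within the limits for 11q.

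**Figure D4:**
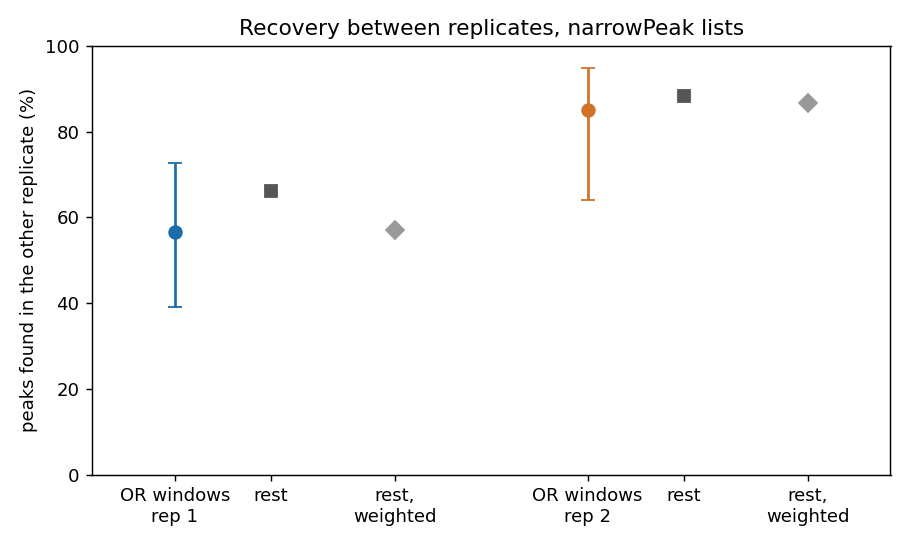
Percentage of narrowPeak peaks found in the other replicate (vertical axis) for the receptor windows (circles with 95% Wilson intervals), the rest of chromosomes 1 and 11 (squares) and the rest weighted to the fold enrichment of the members (diamonds), for both replicates. The window values of 56.7% and 85.0% have intervals that include the values of the rest, 66.1% and 88.3%.

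Regions with a peak of both replicates are the members with the best support. There were 17 in the windows, 14 in 11p and 3 in 1q, where the density outside would give 110. The ratio was 0.154 (exact Poisson interval 0.0899 to 0.247). By window it was 0.385 (0.210 to 0.645) in 11p and 0.0783 (0.0161 to 0.229) in 1q. In 11q there was none, and the limit of 3 counts makes this at least 11.8-fold fewer than in the rest of chromosome 11. The summits of both replicates in the 17 regions were 3 to 121 bp apart, with a median of 24 bp. Of all 33 merged regions, 12 (36.4%) were in all 4 lists and 7 (21.2%) in a single list, compared with 45.4% and 21.9% of the 17252 regions outside.

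The strongest member was chr11:4629297-4629718 in 11p. Its fold enrichment was 24.6 in replicate 1 and 18.0 in replicate 2, its −log10 q values were 57.0 and 33.2, and it held 47 and 29 ChIP tags with 1 input tag. These were the highest tag numbers and folds of any member in each replicate. Outside the windows, 3.19% of peaks in replicate 1 and 8.16% in replicate 2 had a higher fold, so the region ranked high in the series as a whole.

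The 4 further shared regions named here of 11p came next by the lower of their folds. At chr11:5706102-5706541 the folds were 12.3 in replicate 1 and 12.2 in replicate 2, with 24 and 18 ChIP tags. At chr11:5617234-5617588 the folds were 11.2 and 8.98, with 22 and 13 tags. At chr11:5585557-5585876 the folds were 8.56 and 8.34 with 16 and 12 tags, and at chr11:5646056-5646363 they were 10.2 and 7.70 with 18 and 12 tags. All 4 regions exceeded the median fold outside the windows in each replicate, 7.49 and 7.47. Of these 4 regions, 3 were in the dense 100 kb. The other 9 shared regions of 11p had folds from 4.81 to 12.8 in replicate 1 and from 3.85 to 7.70 in replicate 2.

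The 3 shared regions of 1q were weaker. At chr1:247611421-247611668 the folds were 6.16 and 5.37, and at chr1:247611761-247612056 they were 4.72 and 9.03. These neighbours near the first border of the window differed in which replicate was higher. The BED list of replicate 1 had a peak of 16 tags at the first of them only, and that of replicate 2 had a peak of 19 tags at the second only. At chr1:248406436-248406715 the folds were 5.55 and 5.17, with 11 and 8 tags. It was the only region of 1q in all 4 lists.

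**Figure D5:**
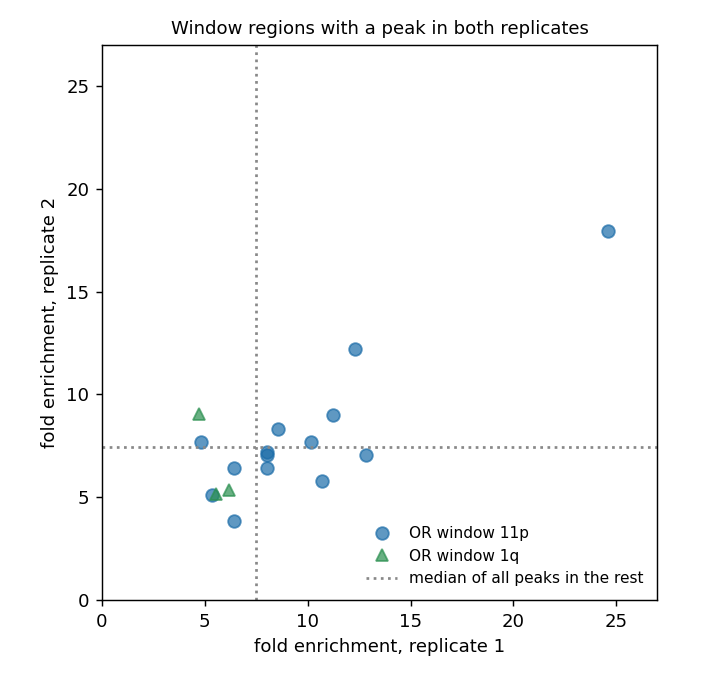
Fold enrichment in replicate 1 (horizontal axis) and replicate 2 (vertical axis) of the 17 window regions with a peak in both replicates, for 11p (circles) and 1q (triangles), with dotted lines at the median of all peaks in the rest of chromosomes 1 and 11 (7.49 and 7.47). A single region of 11p, at 24.6 and 18.0, stands apart, and most others lie near or below the medians.

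Members found in 1 replicate alone had folds of up to 9.63 in replicate 1 and 7.70 in replicate 2. In 11p the highest such fold was 5.88 in replicate 1, shared by chr11:5226093-5226321 and chr11:5624064-5624244, and 7.70 in replicate 2, at chr11:5944372-5944653 with 11 tags. In 1q it was 8.02 in replicate 1, at chr1:247905521-247906062 with 10 tags, and replicate 2 had none. All 4 regions of 11q were of this kind. In replicate 1 they were chr11:56550998-56551247 with a fold of 9.63 and 17 tags, chr11:56392129-56392355 with 6.42 and 11 tags, and chr11:56700382-56700630 with 4.94 and 12 tags, each without an input tag. The single peak of replicate 2, at chr11:55494274-55494464, had a fold of 4.49 and was absent from the BED list of that replicate. The folds of 9.63 and 8.02 in replicate 1 exceeded the median of the rest, 7.49, and that of 7.70 in replicate 2 exceeded 7.47. These regions nevertheless had no counterpart in the other replicate.

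The height of the members was compared with that of other peaks. In replicate 1 the 22 BED members held from 9 to 47 tags with a median of 14, whereas the median in the rest of both chromosomes was 18. In replicate 2 the 15 members held from 8 to 29 tags with a median of 11, and the median of the rest was 13. The ratios of medians were 0.778 and 0.846, with a mean of 0.812 ± 0.0483 (SD, n = 2). The members were thus somewhat lower than other called peaks. All peaks had to pass the same calling threshold, which limits how low the tags of a called peak can be, so this ratio cannot be set against the ratio of peak numbers. Together they held 354 and 187 tags, which were 0.134% and 0.123% of the tags in BED peaks of chromosomes 1 and 11.

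The narrowPeak values had the same direction. The median fold enrichment of the members was 6.29 in replicate 1 (4.28 to 24.6) and 7.06 in replicate 2 (3.85 to 18.0), compared with 7.49 and 7.47 in the rest. Their median −log10 q was 7.41 and 8.04, compared with 10.4 and 9.30, and their median width was 222.5 bp and 242.5 bp, compared with 282 bp and 287 bp. In the whole list 18 of 30 and 12 of 20 members ranked below the middle by fold enrichment, and 1 in each replicate was among the top 10%. By definition, about as many peaks of a list rank below its middle as above it, and about 10% are in the top 10%. By these ranks the members were thus not far from the whole list.

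Input DNA served as the background. The BED members of replicate 1 held 17 input tags over 22 peaks, or 0.773 per peak (exact Poisson interval 0.450 to 1.24), compared with 0.888 in the rest. Those of replicate 2 held 12 input tags over 15 peaks, or 0.800 (0.413 to 1.40), compared with 0.883. No input tag was found at 11 of 22 (50%) and 7 of 15 (46.7%) members, compared with 45.6% and 46.7% of other peaks. Input tags at members were thus within counting error of those at other peaks, and both lists used the same input library. Input depth over the windows outside peaks was not analysed here.

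The tags that the local surroundings of a peak would give, calculated from the ChIP library itself, were lower at members. They averaged 0.780 tags per peak in replicate 1, compared with 1.77 in the rest, and 0.559 in replicate 2, compared with 1.17. The ratios were 0.440 and 0.478, a mean of 0.459 ± 0.0266 (SD, n = 2). Spacing differed as well, in that 72.7% and 80.0% of members had no other BED peak within 10 kb, compared with 30.2% and 37.3% in the rest. Among such isolated peaks the averages were 0.591 and 1.10 in replicate 1 and 0.415 and 0.758 in replicate 2, which gave ratios of 0.535 and 0.548. This isolation rule was chosen after the data were seen, and the part of peak spacing in the difference was not tested otherwise.

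Of the 286 peaks of the input DNA list, 2 lay in the windows, where the rest of both chromosomes would give 0.338. The ratio was 5.91 with an interval that included 1 (0.716 to 21.3). The peak in 11q, chr11:55025524-55025829, had 9.22 tags per 10000000 tags of the library and a fold of 5.32 over its surroundings. The peak in 1q, chr1:248567378-248567683, had 11.1 on the same scale and a fold of 6.34. Both were below the medians of the input list, 11.5 and 6.51. The nearest narrowPeak peaks were 469 kb or more away for the first and 161 kb away for the second, and no ChIP member overlapped an input peak.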

How the data were processed

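HA-PRCC-TFE3 ChIP and input DNA libraries of HK-2 cells were analysed from the deposited peak lists, called per sample. Per the labels the build was hg19, as given in the submitters' processing notes. The study names MACS in Strand NGS with comparison to input, and the aligner and the handling of duplicates are not given in the sources used here. The authors' narrowPeak lists gave for each peak the ratio of ChIP to background at the summit (fold enrichment), −log10 p and q values, and a score of 10 times −log10 q. The lowest −log10 q was 1.31 and 1.35, so the lists extend to q = 0.05. The header of the BED lists was displaced and the columns followed the order of HOMER findPeaks, although HOMER is not named. As deposited by the authors, these columns held a count of tags in the peak, a signal normalized to 10000000 tags of the library, a signal of input tags scaled to the ChIP library, fold ratios over input and over the local background, and a score. Library totals and whole input tag counts were recovered from these columns. The value of 1 input tag was chosen so that most values were whole. Values well below 1 tag were set to 0, and 100% of the remaining input values were whole within 0.1 tag.

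The windows were compared with the rest of chromosomes 1 and 11, from the first to the last peak, each chromosome on its own. Ratios of observed to calculated numbers have exact Poisson intervals, shares have Wilson intervals, and differences of shares have Newcombe intervals. No test over groups was possible with 1 group, and all results are descriptions. Local background tags are the tag count divided by the fold over the local background. Regions were named by rule: in each window up to 5 shared regions with the highest lower fold, the highest peak lacking in the other replicate, input peaks and the longest empty stretch; other regions named were chosen after their values were seen. The members and lists were chosen with earlier results of these data known. The reference at hand was hg38 (chromosome 1 ends at 248956422, before the last peak at 249228915), so peaks were not annotated, no peak sequence was read and no coordinates were converted. Calculations used Python 3.11.15, numpy 2.4.6, pandas 2.3.3 and scipy 1.17.1, and were tested on simulated data.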

Additional observations from a re-analysis of the deposited data

How the results depend on the processing

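Of 50 alternatives, 40 left their result within its error and 10 moved it. For the ratios of peak density, tags, input tags and local background, this error was the SD of both replicates. Leaving out a replicate cannot take such a mean outside it, so those alternatives were no test. For the recovery differences and the ratio of shared regions, the error was the interval of the main value. A change of sign within it was counted as no move, as for replicate 2 without 11q. The peak density ratio (0.167) was 0.156 to 0.179 when a replicate was left out. It moved with the choice of windows, to 0.0633 without 11p, 0.228 without 11q and 0.211 without 1q, so that 11p holds most of the peaks. The tag ratio (0.812) was 0.778 to 0.846 when a replicate was left out, 0.743 from means and 0.893 from narrowPeak fold enrichment. The input tag ratio (0.888) was 0.870 to 0.906 when a replicate was left out, 0.816 with the rest weighted to the ChIP tags of the members and 0.940 for isolated peaks. The local background ratio (0.459) was 0.440 to 0.478, 0.528 and 0.541 under the same changes. The recovery difference of replicate 1 was -32.8 points without 11p, and that of replicate 2, -3.34 points, was 1.13 points without 11q. The ratio of shared regions (0.154) was 0.155 with a reciprocal overlap of 50% and 0.142 in the BED lists.

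The series held 1 group of 2 ChIP libraries with 1 shared input library, so there was no difference between conditions to examine. Counts of 1 to 6 peaks in 11q and 1q limit their precision. No paired analysis was possible because no result comes from a test over samples, and only the ChIP titles carry a number.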
